A study of Arabidopsis thaliana with 18 samples.

Results

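Gene transcript levels in roots and shoots of unexposed Arabidopsis thaliana plants were compared, to describe how transcripts divide between the organs of plants whose medium held no phosphate. The comparison used the 3 control root libraries and the 3 control shoot libraries, chosen by their treatment and tissue labels, which are 6 of the study's 18 libraries. The plants were wild type of the Col-0 accession, 6 weeks old, grown in hydroponic culture and kept for the last 72 h in a medium that lacked phosphate and to which no rare earth element was added. The other groups had the same genotype, age and phosphate-free medium with 5 µM of LaCl3 or YbCl3 for 72 h, in roots and in shoots, and enter here only where the control pattern is set beside theirs. Each library held polyadenylated RNA of 3 pooled plants, separated into root and shoot at harvest. All groups lacked phosphate, so none of the values below measures a response to its removal. Nothing in the labels places the replicates in cultures of their own, so p-values measure only the spread between these samples, which may be technical. Whole organs hold many cell types, and fewer cells of a type and less RNA per cell cannot be told apart.

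Shoots of a rosette plant fix carbon in chloroplasts, a process that needs light-harvesting proteins, the photosystems and the enzymes of the Calvin cycle, nearly all of them encoded in the nucleus. Roots take up water and mineral ions through root hairs and other outer cells, seal the inner tissues with the Casparian strip and suberin, and load ions into the xylem, which carries them to the shoot. Plants short of phosphate make high-affinity phosphate transporters, release phosphate from RNA, organic esters and membrane phospholipids, and replace those lipids with galactolipids and sulfolipids, largely under the control of the transcription factor PHR1 and the SPX proteins that restrain it.

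Defining genes of roots and of leaves were read first, as a check of the labels. All 20 members of the root hair list were higher in roots (64% of all genes tested were), and 11 of them had no read in any shoot library. For 14 of the 20 every shoot library held at most 3 reads. Only their root values could bring them into the test, so their direction was fixed in advance. All 21 light-harvesting, all 25 photosystem and 17 of 18 Calvin cycle genes were lower in roots (21.6% of all genes tested were), with 0.0196% to 0.0275% of root reads and 14.2% to 16.9% of shoot reads. In these lists 4, 1 and 2 genes had at most 3 reads in every root library, so their direction was fixed likewise. Of the 14 members of the floral list, 4 had enough reads to be tested.

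Root libraries held 12797264, 14081139 and 13248430 reads and shoot libraries 14765336, 13748277 and 13165497 reads. Levels are given as counts per 1000000 reads of the library (CPM), in the order of replicates 1, 2 and 3, so 3 reads correspond to 0.203 to 0.234 CPM. Differences are root minus shoot on the log2(CPM + 0.5) scale with their standard error, which understates the change of low genes, and they were tested with limma over the 20414 genes that reached 1 CPM in at least 3 of the 6 libraries. For a gene without a read in 3 libraries of an organ, the fold is a lower bound set against 3 reads per library. A gene with at most 3 reads in every library of an organ could enter the test only through the other organ. The direction of every such gene named below was therefore fixed in advance. Principal component 1 parted the organs with 97.4% of the variance, and component 2 had 0.92%. Replicates of an organ differed by more than counting error, with a chi-square per degree of freedom of 9.66 to 18.1 between root libraries and 10.7 to 12.1 between shoot libraries. Reads of chloroplast-encoded genes made up 0.0498%, 0.00541% and 0.0445% of the root libraries and 0.0226% to 0.0295% of the shoot libraries. Root library 2 was the lowest control root in these reads and also in mitochondrial ones (0.0650%, 0.00948% and 0.0549% in roots, against 0.00215% to 0.00293% in shoots). In the La and Yb roots the shares were 0.000776% to 0.00728% (chloroplast) and 0.0032% to 0.0118% (mitochondrial). Control root libraries 1 and 3 were thus the ones above all other root libraries. In selected polyadenylated RNA these values do not measure organelle transcripts.

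Fewer genes held most of the reads in shoots than in roots. The 10 most abundant genes took 3.11% to 3.34% of root reads and 7.02% to 7.65% of shoot reads, and the 100 most abundant took 12.7% to 13.4% of root reads and 24.6% to 26.4% of shoot reads. To reach 50% of the reads took 1683 to 1802 genes in roots and 752 to 832 genes in shoots. At least 1 CPM was reached by 19375 to 19590 genes in roots, against 18031 to 18180 genes in shoots. Root and shoot libraries did not overlap in any of these 4 measures.

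**Figure D1:**
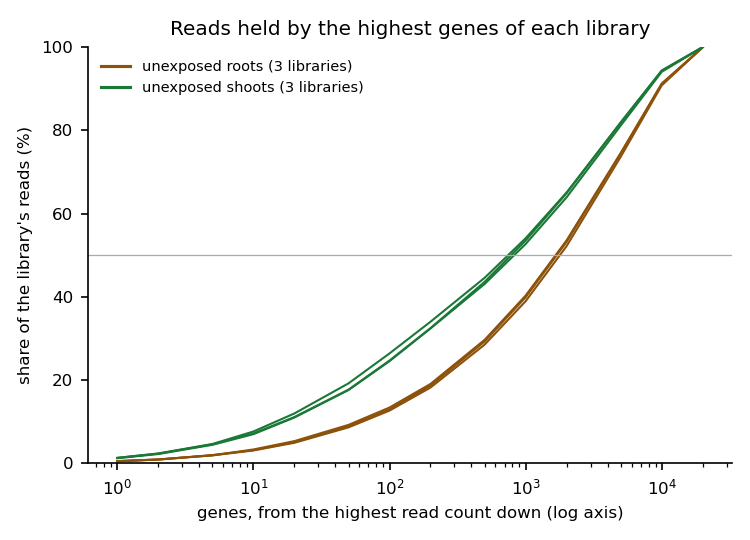
Cumulative share of reads (%, y axis) against the number of genes ranked by abundance (x axis, log scale) for the 3 root and the 3 shoot control libraries, with 1 line per library. The root lines lie below the shoot lines: the 100 most abundant genes hold 12.7% to 13.4% of root reads and 24.6% to 26.4% of shoot reads.

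Every library sums to the same total, so where some genes take a larger share of it the values of all others are lower. On the CPM scale the median gene was 0.64 higher (log2) in roots, a fold of 1.56. Scaling by trimmed mean of M-values (TMM), which sets the bulk of genes level, moved the median difference down by 0.59, median-of-ratios scaling moved it by 0.60, and a divisor without photosynthesis and organelle genes moved it by 0.26. Genes near 0 in an organ moved less, because of the added 0.5. Counts and directions below are therefore given on the CPM scale with the TMM count beside them. Of 20414 genes, 13062 (64%) were higher and 4414 (21.6%) lower in roots on the CPM scale, against 7791 (38.2%) higher and 6986 (34.2%) lower with TMM scaling. By a limit of 4-fold, 3345 genes (16.4%) were at least 4-fold higher and 2158 (10.6%) at least 4-fold lower in roots, against 2614 (12.8%) and 2667 (13.1%) with TMM scaling. In 17735 genes (86.9%) the 3 root values did not overlap the 3 shoot values. For 7127 genes (34.9%) the 95% interval of the difference lay within 2-fold, and with TMM scaling this held for 9713 genes (47.6%).

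A difference of at least 100-fold separated the organs for 221 genes higher in roots and 272 genes lower in roots, and one of 10-fold to 100-fold for 1558 and 949 genes. Among all 28991 genes of the tables, 1245 (4.29%) were found in roots alone, meaning at least 1 CPM in all 3 root libraries and no more than 3 reads in any shoot library, and 511 (1.76%) were found in shoots alone by the mirrored rule. No read at all in the other organ was counted for 635 of the genes found in roots alone and for 225 of those found in shoots alone. Most of these genes were low: 65 of the root genes and 49 of the shoot genes averaged at least 100 CPM.

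Cell wall proteins led the genes that were highest in roots relative to shoots, together with a peroxidase, a phosphate transporter and proteins of pathogenesis-related families. AT1G26250, annotated as a proline-rich extensin-like protein of the cell wall, stood at 1347, 1949 and 1593 CPM in roots, against 0.0677, 0.0727 and 0 CPM in shoots. AT3G28550, annotated alike, stood at 1448, 1333 and 1063 CPM in roots, against no read in shoots, a fold of at least 5922. The peroxidase gene AT3G01190 had 887, 877 and 914 CPM in roots, against no read in shoots, at least 4125-fold higher in roots. The rule that named these 3 admitted only genes whose organs did not overlap, so their separation is no result. AT4G33720, annotated as a protein of the CAP superfamily that holds secreted pathogenesis-related proteins, had 1378, 1148 and 1967 CPM in roots, against 0.0677, 0 and 0.228 CPM in shoots. MLP34 (AT1G70850), a member of the major latex protein family, had 1059, 682 and 1038 CPM in roots, against 0.0677, 0.145 and 0.076 CPM in shoots. AIR1 (AT4G12550), first described as induced by auxin in root cultures, had 735, 625 and 1304 CPM in roots and a single read in the 3 shoot libraries together. AT1G26250 and AIR1 overlap another annotated gene.

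Photosynthesis genes led the genes lower in roots. RBCS3B (AT5G38410), which encodes a small subunit of the carbon-fixing enzyme Rubisco, had 0.469, 0.142 and 0.0755 CPM in roots, against 4772, 4445 and 4446 CPM in shoots (log2 difference -12.65 ± 0.18, adjusted p = 1.55e-10 in limma). Besides photosynthesis genes, the 10 largest negative differences held 3 other genes. CA1 (AT3G01500), a carbonic anhydrase of the chloroplast, had 0.234, 0.355 and 0.151 CPM in roots, against 3135, 3061 and 3201 CPM in shoots (log2 difference -12.04 ± 0.11). TGG1 (AT5G26000), a myrosinase of leaves that hydrolyses glucosinolates, had 0.469, 0.497 and 0.604 CPM in roots, against 3806, 3444 and 3586 CPM in shoots (log2 difference -11.79 ± 0.08). LOX2 (AT3G45140), the lipoxygenase that starts jasmonate synthesis in leaf chloroplasts, had 0.156, 0 and 0.0755 CPM in roots, against 1454, 1202 and 1665 CPM in shoots, with 3 reads in all root libraries together. In all 4 genes every root value was below every shoot value, as the rule that named them required. CA1 overlaps another annotated gene.

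The gene with the highest mean CPM in roots was DR4 (AT1G73330), annotated as drought-repressed 4, at 5434, 3935 and 5465 CPM in roots, against 44.1, 28 and 41.4 CPM in shoots. EXT3 (AT1G21310), an extensin of the cell wall, had 3764, 3587 and 2539 CPM in roots, against 119, 63.3 and 215 CPM in shoots. Both were higher in roots without overlap. GRP7 (AT2G21660), an RNA-binding protein under clock control, was among the 5 most abundant genes of both organs and lower in roots, at 3109.6, 4187 and 4041 CPM in roots, against 7603, 10017 and 10048 CPM in shoots (log2 difference -1.29 ± 0.16). PRXR1 (AT4G21960), a peroxidase, was also abundant in both organs, at 3191, 3305 and 3192 CPM in roots, against 3249, 2908 and 3364 CPM in shoots. It did not pass the test, with a log2 difference of 0.03 ± 0.11, or -0.58 with TMM scaling. In shoots the gene with the highest mean was RBCS1A (AT1G67090), another Rubisco small subunit gene, at 5.08, 1.78 and 2.34 CPM in roots, against 13316, 13118 and 12386 CPM in shoots. CAT3 (AT1G20620), a peroxisomal catalase, had 508, 532 and 575 CPM in roots, against 6346, 5419.8 and 7319 CPM in shoots (log2 difference -3.55 ± 0.13). Both were lower in roots in every library. EXT3 overlaps another annotated gene.

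The light-harvesting and photosystem genes were lower in roots with CPM and with TMM scaling (34.2% of all genes tested were lower in roots with TMM scaling). Their median log2 differences were -9.65 and -9.89, against 0.64 over all genes tested. These genes encode the chlorophyll-binding antenna (LHCA around photosystem I, LHCB around photosystem II) and the nuclear-encoded subunits of both photosystems. LHCB3 (AT5G54270) stood at 4.45, 1.35 and 3.77 CPM in roots, against 8079, 6562 and 5648 CPM in shoots. LHCB5 (AT4G10340) stood at 8.75, 6.18 and 6.57 CPM in roots, against 7041, 5994 and 5318 CPM in shoots. LHCB6 (AT1G15820) stood at 3.83, 2.56 and 3.32 CPM in roots, against 3084, 2395 and 2170.2 CPM in shoots. For these 3 antenna genes every root library was far below every shoot library. LHCA6 (AT1G19150), an antenna protein that joins photosystem I to the NDH complex, had no read in roots and 118, 122 and 113 CPM in shoots, at least 525-fold lower in roots. LHCB7 (AT1G76570) had the smallest difference of the list, with 5.24, 2.56 and 3.85 CPM in roots, against 17.6, 14.7 and 17.9 CPM in shoots and a log2 difference of -2.02 ± 0.22. LHCB1.1, LHCB1.2 and LHCB1.3 are near-identical copies, so reads may be split among them and each of their values is uncertain. LHCB3 and LHCB6 overlap another annotated gene.

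Among photosystem subunits, PSBO1 (AT5G66570), of the oxygen-evolving complex, had 6.8, 3.55 and 5.28 CPM in roots, against 4189, 3956 and 3828 CPM in shoots. Its partner PSBQ2 (AT4G05180) had 1.64, 1.42 and 0.906 CPM in roots, against 2691, 2444 and 2459 CPM in shoots (log2 difference -10.46 ± 0.14). PSBR (AT1G79040), another photosystem II subunit, had 5.94, 4.62 and 5.06 CPM in roots, against 5907, 4879 and 5435 CPM in shoots. Root libraries held fewer than 7 CPM of every photosystem gene on the list. NPQ4 (AT1G44575), the PsbS protein that switches on heat dissipation of excess light, had 0.0781, 0.071 and 0.151 CPM in roots, against 1922, 1849 and 1913 CPM in shoots (log2 difference -11.63 ± 0.09). DRT112 (AT1G20340), a plastocyanin that carries electrons between the cytochrome complex and photosystem I, had 1.72, 0.213 and 0.679 CPM in roots, against 3100.4, 3029.8 and 2803 CPM in shoots. None of the 5 overlapped between organs. PSBR overlaps another annotated gene.

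Of the 18 Calvin cycle genes, the 17 lower in roots and the 1 higher were called alike with CPM and TMM scaling (median -10.60). The 4 Rubisco small subunit genes ranged over log2 differences of -12.65 ± 0.18 for RBCS3B to -10.55 ± 0.18 for RBCS1B (AT5G38430). RCA (AT2G39730), Rubisco activase, had 3.99, 2.91 and 4.000 CPM in roots, against 5309, 4888 and 4877 CPM in shoots. PRK (AT1G32060), phosphoribulokinase, had 0.86, 0 and 0.151 CPM in roots, against 1380.3, 1284 and 1480.0 CPM in shoots. SBPASE (AT3G55800), sedoheptulose-bisphosphatase, had 0.0781, 0.142 and 0.226 CPM in roots, against 1015, 1030.2 and 1061 CPM in shoots. PRK and SBPASE act in the Calvin cycle and in no other route, and their root values were below 1 CPM. PGK1 (AT3G12780), a plastid phosphoglycerate kinase, had 51.1, 45.2 and 46.9 CPM in roots, against 1444, 1568 and 1525 CPM in shoots (log2 difference -4.97 ± 0.09). RPE (AT5G61410), a ribulose-phosphate epimerase, had 32, 30.5 and 34.2 CPM in roots, against 627, 678 and 638 CPM in shoots (log2 difference -4.31 ± 0.08). These were the 2 smallest differences of the 17. The gene higher in roots was CP12-3 (AT1G76560), a member of the CP12 family that binds Calvin cycle enzymes in the dark, with 13, 19.5 and 22.6 CPM in roots, against 7.65, 5.09 and 6.46 CPM in shoots (log2 difference 1.43 ± 0.22). Its relative CP12-2 (AT3G62410) was lower in roots, with 0.703, 0.142 and 0.226 CPM in roots, against 419, 484 and 536 CPM in shoots. The organs did not overlap for either. RCA, PRK and PGK1 overlap another annotated gene.

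**Figure D2:**
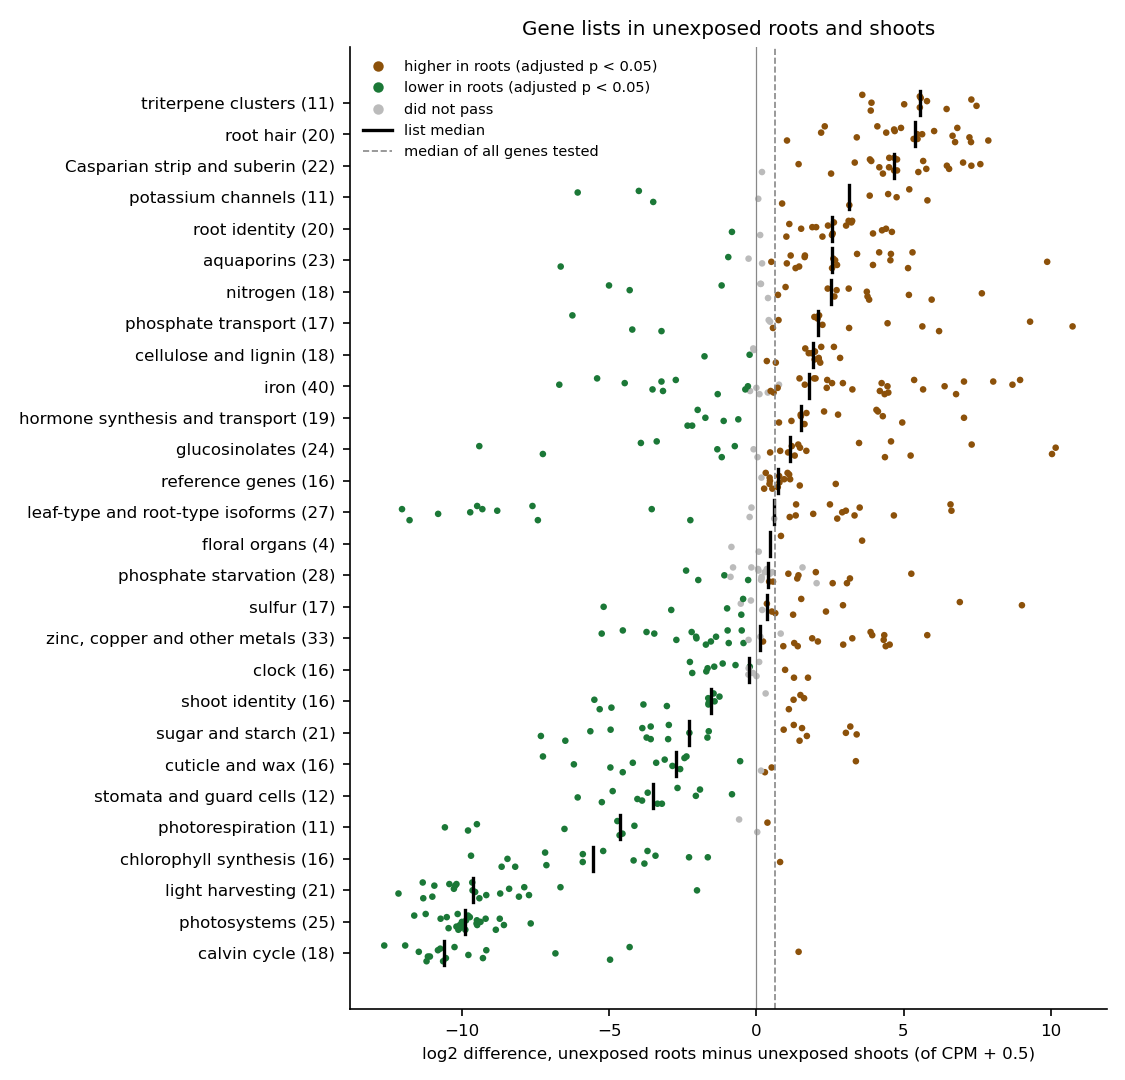
Root minus shoot differences (log2, x axis, CPM scale) of the tested members of the 28 gene lists, 1 row per list and 1 point per gene, with list medians. Light-harvesting, photosystem and Calvin cycle genes lie near -10, root hair, suberin and triterpene genes lie mostly above 4, and TMM scaling moves the median of all genes left by 0.59.

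The 250 bases upstream of the annotated start are shown for 3 of these genes, since their promoters hold letters that are known from light-regulated promoters: the G-box CACGTG, bound by bZIP and bHLH factors, and the I-box core GATAAG (both searched on both strands). They were taken from the reference genome TAIR10.1, run 5′ to 3′ toward the gene and have both motifs in capitals. The genes are RBCS2B (chr5:15382072-15382321, minus strand), LHCB6 (chr1:5447881-5448130, minus strand) and PSBQ2 (chr4:2673244-2673493, minus strand).
RBCS2B: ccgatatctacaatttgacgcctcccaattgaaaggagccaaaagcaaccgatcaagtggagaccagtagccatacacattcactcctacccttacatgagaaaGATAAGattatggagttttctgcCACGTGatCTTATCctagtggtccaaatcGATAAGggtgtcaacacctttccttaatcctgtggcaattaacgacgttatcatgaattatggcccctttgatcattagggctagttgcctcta
LHCB6: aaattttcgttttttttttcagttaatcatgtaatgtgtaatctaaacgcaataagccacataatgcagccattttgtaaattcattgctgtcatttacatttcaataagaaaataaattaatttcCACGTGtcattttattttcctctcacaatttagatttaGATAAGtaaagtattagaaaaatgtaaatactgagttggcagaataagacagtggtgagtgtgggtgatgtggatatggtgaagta
PSBQ2: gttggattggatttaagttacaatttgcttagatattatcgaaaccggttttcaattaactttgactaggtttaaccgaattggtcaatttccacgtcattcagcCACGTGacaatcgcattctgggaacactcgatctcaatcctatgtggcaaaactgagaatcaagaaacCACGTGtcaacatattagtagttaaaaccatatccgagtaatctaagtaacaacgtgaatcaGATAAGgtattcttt
The RBCS2B window held 1 CACGTG and 3 GATAAG, the LHCB6 window 1 of each, and the PSBQ2 window 2 CACGTG and 1 GATAAG, on either strand. RBCS2B (AT5G38420) itself had 0, 0.142 and 0.151 CPM in roots, against 1570.4, 1658 and 1840.3 CPM in shoots. Over the 20053 tested genes with such a window, 7.24% held CACGTG and 12.3% held GATAAG. Among light-harvesting windows 5 of 21 held CACGTG (23.8%), as did 4 of 25 photosystem windows (16%) and 3 of 18 Calvin cycle windows (16.7%). The I-box core occurred in 4 of 21 (19.0%), 7 of 25 (28%) and 5 of 18 (27.8%) of the same windows. Among genes at least 100-fold lower in roots, 28 of 270 windows (10.4%) held CACGTG and 53 (19.6%) held GATAAG. Among genes at least 100-fold higher in roots, 3 of 221 (1.36%) and 30 (13.6%) did. CACGTG is its own reverse complement, and neither motif overlaps the other. A match describes letters in a window and shows no binding, and most photosynthesis genes had no match in this window.

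Photorespiration returns carbon lost when Rubisco fixes oxygen. Of its 11 tested genes 8 were lower and 1 was higher in roots, against 21.6% and 64% of all genes tested (median -4.65). With TMM scaling 10 were lower and 0 higher, against 34.2% and 38.2% of all genes tested. GOX1 (AT3G14420), a peroxisomal glycolate oxidase, had 0.0781, 0.071 and 0 CPM in roots, against 799, 821 and 912 CPM in shoots, with 2 reads in the root libraries together. HPR (AT1G68010), hydroxypyruvate reductase, had 0.234, 0.071 and 0.226 CPM in roots, against 574, 612 and 613 CPM in shoots (log2 difference -9.80 ± 0.12). SHM1 (AT4G37930), the mitochondrial serine hydroxymethyltransferase, had 25.9, 26.1 and 25.1 CPM in roots, against 2422, 2416 and 2387 CPM in shoots (log2 difference -6.52 ± 0.08). All 3 were lower in every root library. In 4 of the list's 12 members, GOX1 and HPR among them, every root library held at most 3 reads. These could pass the filter only through shoots, so the direction of those tested was fixed. GLDP1 (AT4G33010), a P-protein of glycine decarboxylase, had 63.3, 66.6 and 61.5 CPM in roots, against 1378, 1512 and 1641 CPM in shoots. Its relative GLDP2 (AT2G26080) had 240.1, 238 and 206 CPM in roots, against 234, 216 and 219 CPM in shoots, with overlapping groups. CAT2 (AT4G35090), a catalase, was higher in roots on the CPM scale at 238, 273 and 243 CPM in roots, against 226, 183 and 175 CPM in shoots (log2 difference 0.38 ± 0.11), and the sign was reversed with TMM scaling (-0.23). Without root library 2, CAT2 did not pass the test. PGLP1 was not tested: its reads may be shared with a near-identical copy, and its 3 root values were 0. GOX1, GLDP1 and CAT2 overlap another annotated gene.

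Chlorophyll synthesis had 15 of 16 genes lower and 1 higher in roots, against 21.6% and 64% of all genes tested, and a median of -5.55. With TMM scaling 15 were lower and 0 higher, against 34.2% and 38.2% of all genes tested. The first steps are shared with heme synthesis. HEMA1 (AT1G58290), the main glutamyl-tRNA reductase, had 60.9, 55.1 and 58.1 CPM in roots, against 393, 246 and 241 CPM in shoots. GSA1 (AT5G63570), which makes aminolevulinate in the next step, had 46.3, 47.9 and 43.8 CPM in roots, against 141, 164 and 133 CPM in shoots. HEMA2 (AT1G09940), the second glutamyl-tRNA reductase, was the gene higher in roots, at 28.1, 33.4 and 30.2 CPM in roots, against 15.6, 16.4 and 19.98 CPM in shoots (log2 difference 0.81 ± 0.12). With TMM scaling HEMA2 had a log2 difference of 0.21 and did not pass the test. Later steps lead to chlorophyll alone. GUN5 (AT5G13630), a subunit of magnesium chelatase, had 1.48, 1.07 and 0.453 CPM in roots, against 1397, 1196 and 1014 CPM in shoots (log2 difference -9.70 ± 0.27). CRD1 (AT3G56940), the cyclase step, had 4.14, 2.41 and 3.55 CPM in roots, against 1600.0, 1379 and 1081 CPM in shoots. PORB (AT4G27440), a light-dependent protochlorophyllide reductase, had 7.5, 3.76 and 5.89 CPM in roots, against 2056, 1855 and 1441 CPM in shoots. Each of these 3 was read in every root library, below every shoot value. CRD1 and PORB overlap another annotated gene.

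Where an enzyme has several genes, roots and shoots often held different ones. Of the 27 tested genes on the list of leaf-type and root-type isoforms, 13 were higher and 11 lower in roots (13 higher and 13 lower with TMM scaling). The shares over all genes tested were 64% and 21.6%, or 38.2% and 34.2% with TMM scaling. Several of the isoform genes are named for the organ they were known from, so their direction is no independent evidence. Ferredoxins carry electrons in plastids. The leaf-type FD2 (AT1G60950) had 7.97, 8.24 and 7.55 CPM in roots, against 1446, 1847 and 1659.9 CPM in shoots (log2 difference -7.61 ± 0.10). FD3 (AT2G27510), a root-type ferredoxin, had 202, 236 and 206 CPM in roots, against 17.7, 18.6 and 18.7 CPM in shoots (log2 difference 3.51 ± 0.09). Ferredoxin-NADP reductases divided in the same way. FNR2 (AT1G20020) of leaves had 2.5, 2.2 and 3.25 CPM in roots, against 1875, 2075 and 2006 CPM in shoots. RFNR2 (AT1G30510) of roots had 285, 429 and 276 CPM in roots, against 31.5, 32.7 and 30.5 CPM in shoots. RFNR1 (AT4G05390) also had higher root values, 43.2, 60.2 and 47.6 CPM in roots, against 24.5, 23.2 and 19.9 CPM in shoots, with a log2 difference of 1.13 ± 0.13.

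Nitrogen assimilation genes divided as well. GLU1 (AT5G04140), the ferredoxin-dependent glutamate synthase of leaves, had 0.469, 0.852 and 1.36 CPM in roots, against 960.4, 987 and 952 CPM in shoots (log2 difference -9.49 ± 0.21). Its relative GLU2 (AT2G41220) had 239, 275 and 221 CPM in roots, against 65.2, 60.4 and 65.3 CPM in shoots (log2 difference 1.93 ± 0.10). The NADH-dependent GLT1 (AT5G53460) had 1285, 2077 and 1799 CPM in roots, against 303, 301 and 291 CPM in shoots (log2 difference 2.5 ± 0.16). GLU1 was thus lower in roots, while GLU2 and GLT1 were higher, without overlap. Among glutamine synthetases, the plastid enzyme GS2 (AT5G35630) had 134, 176 and 145 CPM in roots, against 1688, 1912 and 1733 CPM in shoots (log2 difference -3.56 ± 0.12). The cytosolic GLN1;2 (AT1G66200) had 993, 2127 and 1457 CPM in roots, against 191, 192 and 194 CPM in shoots (log2 difference 2.92 ± 0.24). All 4 cytosolic genes on the list were higher in roots, with log2 differences of 1.34 ± 0.12 for GLN1;1, 1.35 ± 0.11 for GLN1;3 and 2.75 ± 0.16 for GLN1;4. Root library 2 was the highest for GLT1 and GLN1;2. GLU1 and GLT1 overlap another annotated gene.

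Levels of 2 genes can be compared per length of transcript. GS2 stood at 72.1 CPM per kb in roots and 846 in shoots. GLN1;2 stood at 905 CPM per kb in roots and 114 in shoots, so the cytosolic enzyme was the higher of the pair in roots and the plastid enzyme in shoots. The same held for ferredoxins: FD3 stood at 217 and FD2 at 8.04 CPM per kb in roots, against 18.5 and 1676 in shoots.

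Phosphoenolpyruvate carboxylases, which fix bicarbonate into oxaloacetate, each took another course. PPC3 (AT3G14940) had 297, 195 and 174 CPM in roots, against 7.79, 8.15 and 8.05 CPM in shoots (log2 difference 4.67 ± 0.18). PPC2 (AT2G42600) had 176, 91 and 99.9 CPM in roots, against 556, 561 and 551 CPM in shoots (log2 difference -2.24 ± 0.23). PPC1 (AT1G53310) had 516, 361 and 352 CPM in roots, against 499, 409 and 520.3 CPM in shoots (log2 difference -0.23 ± 0.16). PPC3 was higher and PPC2 lower in roots, and PPC1 overlapped between organs, passing the test with TMM scaling (-0.84) and without root library 1 (-0.41), and not with all libraries on the CPM scale. The sucrose synthase SUS4 (AT3G43190) was higher in roots at 92.7, 77.9 and 66.2 CPM in roots, against 11.7, 8.51 and 7.44 CPM in shoots. SUS1 (AT5G20830) overlapped at 115, 141 and 131 CPM in roots, against 127, 143 and 166 CPM in shoots and was lower in roots with TMM scaling (log2 difference -0.77).

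Myrosinases hydrolyse glucosinolates, and those of roots and leaves are encoded by different genes. TGG4 (AT1G47600) and TGG5 (AT1G51470) had no read in shoots, 40.4, 61.9 and 43.9 CPM and 40.2, 60.01 and 48.6 CPM in roots, at least 225-fold and 229-fold higher. They are near-identical copies of each other, so their values cannot be separated. Of the leaf myrosinases, TGG2 (AT5G25980) was lower in roots, with 0.391, 0.497 and 0.604 CPM in roots, against 1853, 1732 and 1786 CPM in shoots (log2 difference -10.82 ± 0.10).

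**Figure D3:**
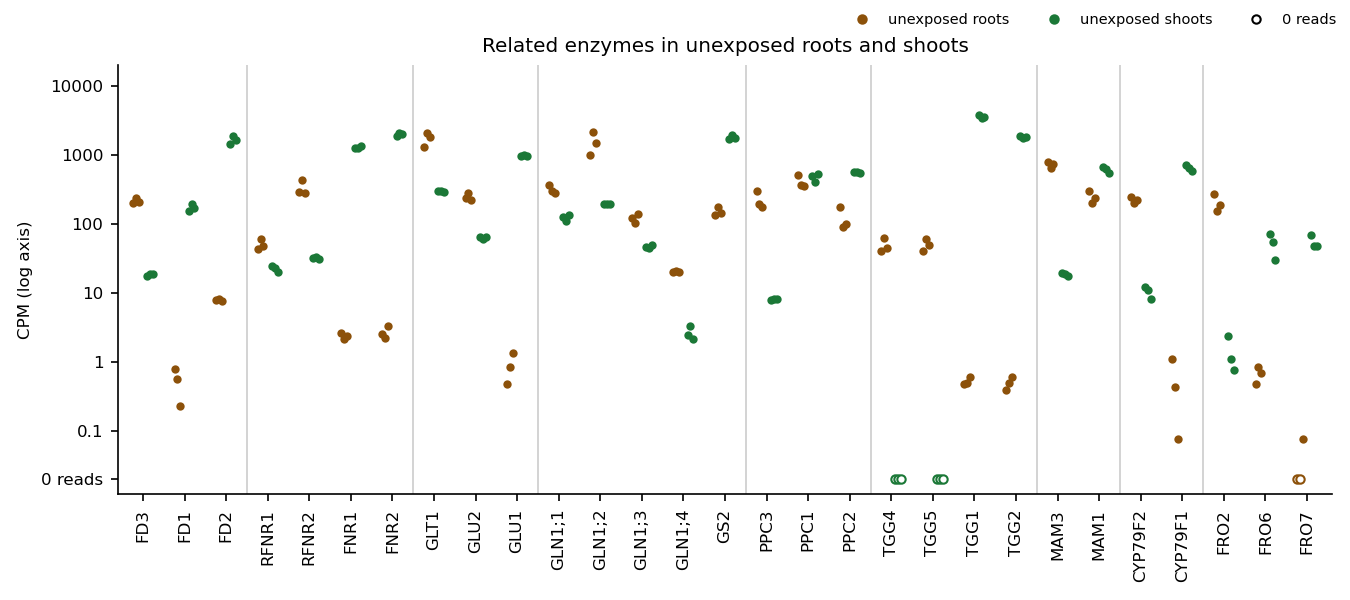
CPM (y axis, log scale) of related enzymes in the control libraries, roots at the left and shoots at the right of each gene, with 1 point per library and open points for 0 reads; grey lines part the enzyme families. FD3, RFNR2, GLT1, GLN1;2, PPC3, MAM3 and CYP79F2 lie higher in roots, while FD2, FNR2, GLU1, GS2, PPC2 and CYP79F1 lie lower.

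Surface cells of leaves carry stomata, and all 12 stomatal and guard cell genes were lower in roots with CPM and TMM scaling (median -3.53, or -3.79 with genes that had no root read set at their bound). Over all genes tested 21.6% were lower, or 34.2% with TMM scaling. For 9 of the 12 every root library held at most 3 reads, so they could pass the filter only through shoots. The direction of these 9 was fixed by the filter. FAMA (AT3G24140), the last of the bHLH factors that build guard cells, had 0, 0 and 0.0755 CPM in roots, against 18.4, 21.5 and 18.6 CPM in shoots, with a single root read. SPCH (AT5G53210), which starts the stomatal lineage, had no read in roots, against 3.79, 4.07 and 4.56 CPM in shoots, at least 18.4-fold lower in roots. EPFL9 (AT4G12970), a peptide that promotes stomata, had 0.156, 0 and 0.226 CPM in roots, against 16.8, 21.9 and 15.3 CPM in shoots. These genes were low in shoots too: with a filter of 5 CPM, 6 of the 12 could be tested. KAT1 (AT5G46240), the inward potassium channel of guard cells, had 0.0781, 0 and 0 CPM in roots, against 35.1, 36.9 and 32.7 CPM in shoots, with a single read in roots. HT1 (AT1G62400), a kinase of the carbon dioxide response, had the smallest difference, at 1.64, 1.92 and 1.89 CPM in roots, against 3.72, 3.13 and 4.03 CPM in shoots (log2 difference -0.83 ± 0.17).

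Of 16 tested cuticle and wax genes, 12 were lower and 3 higher in roots, against 21.6% and 64% of all genes tested (median -2.72). With TMM scaling 14 were lower and 1 higher, against 34.2% and 38.2% of all genes tested. CER1 (AT1G02205), needed for wax alkanes, had 0.391, 0.568 and 0.604 CPM in roots, against 162, 174 and 131 CPM in shoots (log2 difference -7.25 ± 0.15). CUT1 (AT1G68530), which elongates wax precursors, had 1.64, 1.99 and 4.08 CPM in roots, against 218, 195 and 228 CPM in shoots. The exporter ABCG11 (AT1G17840) had 2.42, 4.69 and 3.77 CPM in roots, against 74.7, 72.4 and 72.9 CPM in shoots (log2 difference -4.20 ± 0.19). No root library reached a shoot library for these 3. CER4 (AT4G33790), an alcohol-forming reductase, was higher in roots at 24.1, 11.4 and 24.2 CPM in roots, against 1.29, 2.04 and 0.911 CPM in shoots (log2 difference 3.38 ± 0.33). GPAT4 (AT1G01610), a cutin acyltransferase, was higher on the CPM scale at 40.6, 36.1 and 33.1 CPM in roots, against 24.7, 25 and 26.3 CPM in shoots, with a log2 difference of -0.08 and no call with TMM scaling. KCS1 (AT1G01120), an elongase, was higher on the CPM scale (log2 difference 0.29 ± 0.09) and lower with TMM scaling (-0.31). ABCG11 overlaps another annotated gene.

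Regulators of leaf and meristem identity were split. Of 16 tested genes, 11 were lower and 4 higher in roots with CPM and TMM scaling, and 5 more were too low to test. The shares over all genes tested were 21.6% and 64%, or 34.2% and 38.2% with TMM scaling. The YABBY factors mark the lower side of leaves. FIL (AT2G45190) had 0, 0.071 and 0 CPM in roots, against 17.1, 15.7 and 13.6 CPM in shoots. YAB3 (AT4G00180) had 0, 0 and 0.0755 CPM in roots, against 19, 20.6 and 22.1 CPM in shoots. YAB5 (AT2G26580) had no read in roots, against 21.7, 22.1 and 22.9 CPM in shoots. Every root value of these 3 was below every shoot value. They could pass the filter only through shoots, so their direction was fixed in advance. In 7 of the list's 21 members every root library held at most 3 reads, and in 2 every shoot library did. ATML1 (AT4G21750), the epidermal homeodomain factor, had 3.2, 5.26 and 6.11 CPM in roots, against 76.2, 78.6 and 67.6 CPM in shoots (log2 difference -3.84 ± 0.20). Factors that also act in vascular patterning were among those higher in roots. PHB (AT2G34710) had 77.5, 73.2 and 81.1 CPM in roots, against 29.2, 27 and 25.1 CPM in shoots (log2 difference 1.50 ± 0.09). REV (AT5G60690) had 72.3, 68.9 and 79.3 CPM in roots, against 28.9, 31.9 and 30.1 CPM in shoots. KAN2 (AT1G32240) had 17.3, 14.7 and 16.8 CPM in roots, against 6.7, 7.64 and 7.52 CPM in shoots. These 3 did not overlap between organs either. STM (AT1G62360), the meristem homeodomain factor, had 1.72, 1.78 and 0.226 CPM in roots, against 4.88, 2.98 and 5.32 CPM in shoots, with root library 3 far below the other root libraries. REV overlaps another annotated gene.

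Genes of root identity were higher in roots for 18 of 20 tested members and lower for 1, against 64% and 21.6% of all genes tested. With TMM scaling 18 were higher and 2 lower, against 38.2% and 34.2% of all genes tested. The median was 2.58, or 2.88 with genes without shoot reads at their bound. In 10 of the list's 21 members every shoot library held at most 3 reads, so these could pass the filter only through roots. PLT1 (AT3G20840), which specifies the root stem cell niche, had 8.91, 7.46 and 11.5 CPM in roots, against no read in shoots, at least 42.9-fold higher. SMB (AT1G79580), of the root cap, had 6.64, 7.24 and 9.36 CPM in roots, against 0, 0 and 0.076 CPM in shoots. WER (AT5G14750), which sets the files of hairless cells, had 19.2, 18.8 and 19.4 CPM in roots, against 0.271, 0.582 and 0.456 CPM in shoots (log2 difference 4.41 ± 0.17). All 3 were at or near 0 in shoots. SHR (AT4G37650), the mobile factor of the root stele, had 37.7, 37.4 and 42.8 CPM in roots, against 9.48, 8.66 and 9.57 CPM in shoots (log2 difference 2.03 ± 0.10). Its partner SCR (AT3G54220) had 39, 40.2 and 36.8 CPM in roots, against 16.9, 20.9 and 18.8 CPM in shoots (log2 difference 1.02 ± 0.10). Both were also present in shoots, where they are known from the bundle sheath and starch sheath. ACR4 (AT3G59420), a receptor kinase of the epidermis and root cap, was lower in roots at 5.24, 5.75 and 7.02 CPM in roots, against 10.6, 11.4 and 11 CPM in shoots (log2 difference -0.83 ± 0.14). TTG1 (AT5G24520), which acts in hairs of both root and leaf, overlapped between organs at 35.4, 41.4 and 41 CPM in roots, against 38.1, 33.6 and 35.8 CPM in shoots and was lower in roots with TMM scaling (-0.47).

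The 20 root hair genes were higher in roots with TMM scaling too, as were 38.2% of all genes tested (median 5.41, or 6.60 with genes without shoot reads at their bound). For 14 of them the filter fixed the direction, since they could pass it only through roots. RHD6 (AT1G66470), the bHLH factor that starts a hair, had 19.7, 8.88 and 17.6 CPM in roots, against no read in shoots. RSL2 (AT4G33880), which drives its growth, had 35.2, 21.1 and 24.3 CPM in roots, against 0.948, 0.436 and 0.304 CPM in shoots. RHD2 (AT5G51060), the NADPH oxidase of the growing tip, had 71.8, 91.3 and 76.1 CPM in roots, against 0.339, 0.218 and 0.076 CPM in shoots (log2 difference 6.83 ± 0.18). In 16 of the 20 genes the highest root value was in library 1. The list also holds proteins that build or loosen the hair wall. LRX1 (AT1G12040) had 64.3, 54.8 and 43.2 CPM in roots, against no read in shoots, at least 249.9-fold higher. The peroxidase RHS19 (AT5G67400) had 146, 103 and 107 CPM in roots, against no read in shoots, at least 549-fold higher. EXPA7 (AT1G12560), a hair expansin, had 38.3, 33.3 and 26.6 CPM in roots, against no read in shoots, at least 151-fold higher. SCN1 (AT3G07880), a GDP dissociation inhibitor that keeps hairs single, was well read in both organs, at 154, 138 and 145 CPM in roots, against 65.6, 71.1 and 75 CPM in shoots (log2 difference 1.04 ± 0.09). RHS19 and EXPA7 overlap another annotated gene.

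Casparian strip and suberin genes were higher in roots for 21 of 22 tested members and lower for 0, against 64% and 21.6% of all genes tested (median 4.68). With TMM scaling 21 were higher and 1 lower, against 38.2% and 34.2% of all genes tested. In 8 of the list's 23 members every shoot library held at most 3 reads, so these could pass the filter only through roots. MYB36 (AT5G57620), which switches on Casparian strip genes, had 29.4, 23 and 29.9 CPM in roots, against 0.0677, 0.0727 and 0 CPM in shoots. CASP1 (AT2G36100), a membrane scaffold of the strip, had 133, 80.2 and 113 CPM in roots, against 0, 0.0727 and 0.076 CPM in shoots, with 2 reads in the shoot libraries together. ESB1 (AT2G28670), a dirigent-like protein that places lignin, had 147, 97.6 and 129.7 CPM in roots, against 5.35, 3.93 and 3.8 CPM in shoots (log2 difference 4.68 ± 0.17). Root library 2 was the lowest of the roots for MYB36, CASP1 and ESB1, and all 3 root libraries were above the shoots. For suberin, CYP86A1 (AT5G58860) hydroxylates fatty acids and had 60.9, 65.2 and 63.1 CPM in roots, against 3.18, 1.89 and 1.97 CPM in shoots (log2 difference 4.51 ± 0.17). ASFT (AT5G41040), which adds ferulate, had 186, 142 and 127 CPM in roots, against 4.67, 5.24 and 5.01 CPM in shoots (log2 difference 4.78 ± 0.14). These 2 suberin genes did not overlap between organs, whereas KCS20 (AT5G43760), an elongase of wax and suberin alike, overlapped at 84.3, 81.8 and 101 CPM in roots, against 79.5, 70.6 and 83.6 CPM in shoots (log2 difference 0.19 ± 0.11, or -0.42 and past the test with TMM scaling). CASP1, ESB1 and ASFT overlap another annotated gene.

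Of 17 tested phosphate transporters and their helpers, 12 were higher and 3 lower in roots, against 64% and 21.6% of all genes tested (median 2.08). TMM scaling gave 9 higher and 3 lower, against 38.2% and 34.2% of all genes tested. Root library 1 held the highest root value in 14 of the 17 (82.4%, against 30.7% of all genes tested). The high-affinity uptake transporter PHT1;1 (AT5G43350) had 829.9, 982 and 773 CPM in roots, against no read in shoots, at least 3981-fold higher. Its near-identical copy PHT1;2 (AT5G43370) had 476, 271 and 241 CPM in roots, against no read in shoots, at least 1523-fold higher, and the split between the 2 is uncertain. PHT1;9 (AT1G76430), also of uptake, had 43.3, 25.4 and 23.8 CPM in roots, against 0.271, 0 and 0.076 CPM in shoots (log2 difference 5.64 ± 0.26). These 3 were higher in every root library. PHT1;4 (AT2G38940), the other main uptake transporter of roots, was present in both organs, at 184, 52.2 and 102 CPM in roots, against 27.7, 15.5 and 36.3 CPM in shoots. It passed the test on the CPM scale (log2 difference 1.97 ± 0.53) but not with TMM scaling (1.37).

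PHO1 (AT3G23430), which loads phosphate into the xylem, had 508, 689 and 626 CPM in roots, against 34.3, 23 and 24.8 CPM in shoots (log2 difference 4.46 ± 0.17). Its relative PHO1;H1 (AT1G68740) had 128, 76.7 and 77.4 CPM in roots, against 85.6, 51.7 and 71.9 CPM in shoots, with overlapping groups. PHF1 (AT3G52190), which lets PHT1 proteins leave the endoplasmic reticulum, had 268, 232 and 194 CPM in roots, against 52, 43.7 and 48.7 CPM in shoots (log2 difference 2.24 ± 0.12). The 3 genes lower in roots encode chloroplast transporters. PHT2;1 (AT3G26570) had 14.1, 9.73 and 7.32 CPM in roots, against 208, 199 and 179.6 CPM in shoots (log2 difference -4.22 ± 0.21). PHT4;1 (AT2G29650), of the thylakoid, had 1.56, 1.07 and 1.96 CPM in roots, against 174, 145 and 138 CPM in shoots (log2 difference -6.25 ± 0.17). PHT4;4 (AT4G00370), of the envelope, had 10.6, 10.4 and 8.76 CPM in roots, against 96, 102 and 92.3 CPM in shoots (log2 difference -3.23 ± 0.10). None of these overlapped, and PHT4;2 (AT2G38060), a transporter of plastids in roots, had the other direction, at 8.6, 6.25 and 6.64 CPM in roots, against 0.203, 0.364 and 0.532 CPM in shoots (log2 difference 3.15 ± 0.21). PHT3;1 (AT5G14040), the mitochondrial phosphate carrier, had 360.2, 321 and 315 CPM in roots, against 186, 201 and 203 CPM in shoots. It passed the test on the CPM scale (log2 difference 0.75 ± 0.09) and not with TMM scaling (0.14). PHT4;1 and PHT4;4 overlap another annotated gene.

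The phosphate starvation list holds regulators of the response as well as genes that it acts on, and its tested members were read in both organs. The list's 29 members took 1.06%, 0.396% and 0.491% of root reads and 0.351%, 0.246% and 0.408% of shoot reads. Root library 1 held the highest root value in 23 of 28 tested members (82.1%, against 30.7% of all genes tested). Shoot library 3 held the highest shoot value in 23 of 28 (82.1%, against 39.1%). On the CPM scale 10 members were higher and 4 lower in roots, against 64% and 21.6% of all genes tested. With TMM scaling 7 were higher and 5 lower, against 38.2% and 34.2% of all genes tested. The median was 0.39, or -0.21 with TMM scaling. Without root library 1, 9 were higher and 6 lower, with a median of 0.03. In 14 of the 28 members the groups did not overlap, against 86.9% of all genes tested.

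Noncoding RNAs that sequester miR399 were higher in roots. IPS1 (AT3G09922) had 1109, 284 and 326 CPM in roots, against 23.3, 2.25 and 27.2 CPM in shoots (log2 difference 5.26 ± 1.1). The difference of IPS1 was 4.64 without root library 1, 4.19 without shoot library 2 and 5.86 without shoot library 3, and it passed the test in each case. The gene named AT4 (AT5G03545) had 3281, 1513 and 2059 CPM in roots, against 325, 142 and 366 CPM in shoots (log2 difference 3.08 ± 0.44). In both, root library 1 was the highest and shoot library 2 the lowest, and the groups did not overlap. SPX1 (AT5G20150), which binds PHR1 when phosphate is plentiful, had 1361, 484 and 584 CPM in roots, against 279, 223 and 344 CPM in shoots and passed the test (log2 difference 1.39 ± 0.41, adjusted p = 0.0177 in limma). It did not pass with TMM scaling (0.78) nor when shoot library 2 was left out (1.23). SPX3 (AT2G45130), of the same family, had 151, 15.6 and 17.3 CPM in roots, against 11.3, 2.84 and 15.1 CPM in shoots, and its log2 difference of 2.05 ± 1.09 did not pass, nor did the 0.99 without root library 1. SPX4 (AT5G15330) had 11, 14.7 and 14.9 CPM in roots, against 3.39, 3.35 and 2.2 CPM in shoots (log2 difference 2.02 ± 0.19). SPX3 was far higher in root library 1 than elsewhere, while SPX4 was lower there than in the other root libraries. NLA (AT1G02860), a ubiquitin ligase that removes PHT1 proteins, had 64.9, 85.1 and 84.8 CPM in roots, against 11.7, 12.7 and 13 CPM in shoots (log2 difference 2.59 ± 0.12). PHO2 (AT2G33770), which removes PHO1, overlapped at 267, 217 and 221 CPM in roots, against 199, 175 and 255 CPM in shoots. PHR1 (AT4G28610) itself had 56.6, 67.1 and 58.1 CPM in roots, against 48, 39.7 and 46.6 CPM in shoots, higher on the CPM scale (log2 difference 0.43 ± 0.10) and not with TMM scaling (-0.17). NLA and PHR1 overlap another annotated gene.

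Lipid remodelling replaces phospholipids with other membrane lipids. SQD1 (AT4G33030), which makes the sulfolipid head group, had 191, 67.3 and 80.2 CPM in roots, against 580.2, 402 and 644 CPM in shoots (log2 difference -2.39 ± 0.42). DGD1 (AT3G11670), a galactolipid synthase, had 34.8, 22.5 and 27.9 CPM in roots, against 121, 95.9 and 119 CPM in shoots (log2 difference -1.97 ± 0.16). Its relative DGD2 (AT4G00550) had 70.4, 38.5 and 39.1 CPM in roots, against 17.5, 15 and 19.7 CPM in shoots (log2 difference 1.43 ± 0.24). SQD1 and DGD1 were lower in roots and DGD2 higher. SQD2 (AT5G01220), the sulfolipid synthase, had 789, 99.4 and 158 CPM in roots, against 482, 305 and 529 CPM in shoots. MGD2 (AT5G20410), a galactolipid synthase of phosphate shortage, had 81.6, 13.8 and 22.6 CPM in roots, against 54, 34.2 and 74.4 CPM in shoots. MGD3 (AT2G11810), of the same kind, had 300.3, 28 and 36.1 CPM in roots, against 59.3, 30.6 and 80.2 CPM in shoots. In all 3 root library 1 was above every shoot value and root library 2 below every one. Without root library 1, SQD2 and MGD2 were lower in roots (log2 differences -1.76 ± 0.29 and -1.52 ± 0.35), MGD3 turned to -0.72 without passing (0.35 with all libraries), and SPX2 no longer passed (0.32 ± 0.14). NPC4 (AT3G03530), a phospholipase C of phospholipids, was higher in roots, with 52.1, 14.4 and 17.7 CPM in roots, against 1.9, 2.04 and 2.66 CPM in shoots (log2 difference 3.18 ± 0.46).

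Of the enzymes that free phosphate, PECP1 (AT1G17710) had 243, 5.18 and 11.8 CPM in roots, against 29.7, 8.66 and 42.2 CPM in shoots. PS2 (AT1G73010) had 579.6, 82.5 and 101 CPM in roots, against 146, 61.2 and 208 CPM in shoots. PAP17 (AT3G17790), an acid phosphatase, had 429, 156 and 189.7 CPM in roots, against 219, 177 and 293 CPM in shoots. All 3 overlapped between organs, with the highest value in root library 1. Without root library 1 the log2 differences of PECP1, PS2 and PAP17 turned to -1.45, -0.43 and -0.39, against 0.18, 0.46 and 0.05 with all libraries, and none passed the test in either case. PAP10 (AT2G16430), the phosphatase known from the root surface, was lower in roots at 52.2, 28.7 and 28.6 CPM in roots, against 82, 68.5 and 75.2 CPM in shoots (log2 difference -1.09 ± 0.23). PAP17 overlaps another annotated gene.

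**Figure D4:**
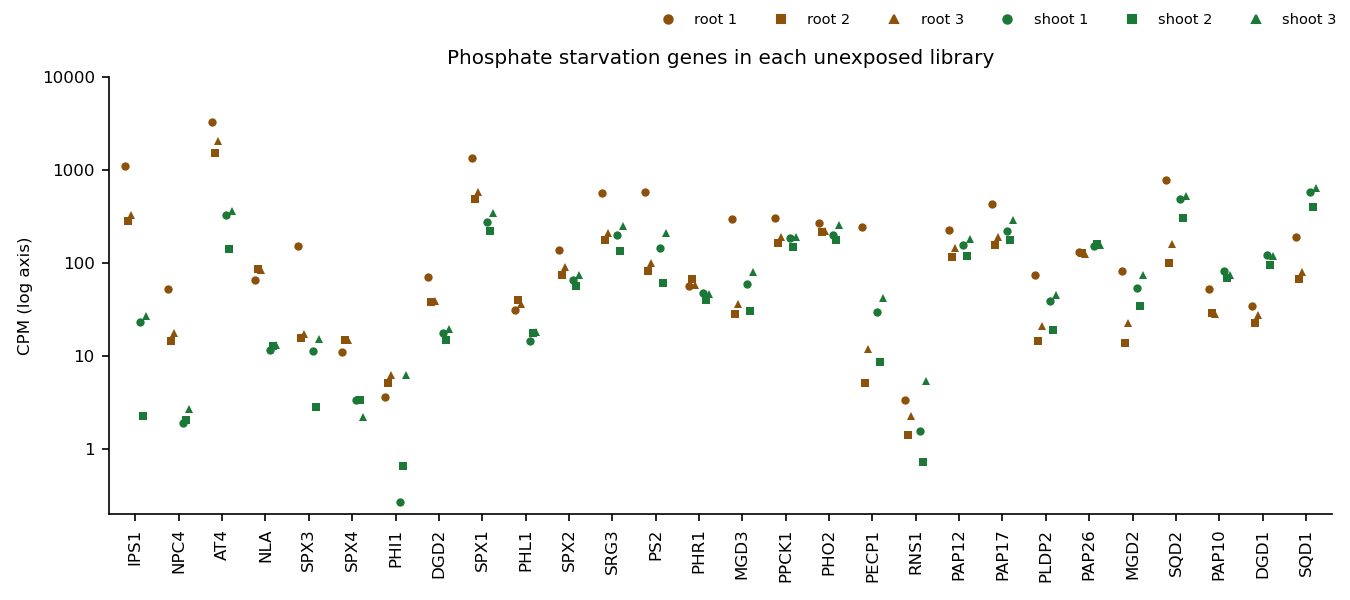
CPM (y axis, log scale) of the tested phosphate starvation genes in the 3 control root libraries, at the left of each gene, and the 3 control shoot libraries, with 1 symbol per library, ordered by log2 difference. Root library 1 (circle) is the highest root value for IPS1, AT4, SPX1, SPX3, PECP1, PS2, SQD1 and SQD2, and shoot library 3 (triangle) the highest shoot value for most genes.

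PHR1 binds the P1BS element GNATATNC, a palindrome, and the windows of 2 of the starvation genes described above are shown with its matches in capitals: SPX3 (chr2:18606160-18606409, plus strand) and AT4 (chr5:894332-894581, plus strand), from TAIR10.1, 5′ to 3′.
SPX3: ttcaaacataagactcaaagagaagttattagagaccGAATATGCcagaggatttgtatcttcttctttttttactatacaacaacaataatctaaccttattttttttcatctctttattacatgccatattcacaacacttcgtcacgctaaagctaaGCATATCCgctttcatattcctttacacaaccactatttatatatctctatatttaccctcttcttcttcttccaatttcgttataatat
AT4: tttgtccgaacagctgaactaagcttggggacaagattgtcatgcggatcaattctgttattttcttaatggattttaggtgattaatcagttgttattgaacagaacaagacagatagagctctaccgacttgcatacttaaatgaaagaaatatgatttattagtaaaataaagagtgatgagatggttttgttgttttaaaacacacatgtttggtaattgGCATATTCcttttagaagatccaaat
The SPX3 window held 2 matches and the AT4 window 1. Of 20053 tested genes with a window, 1095 (5.46%) held the element, against 8 of 29 phosphate starvation genes (27.6%) and 3 of 19 phosphate transport genes (15.8%). Among genes at least 4-fold higher in roots 6.07% held it, and among genes at least 4-fold lower in roots 5.96% did.

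Of 40 tested iron genes, 25 were higher and 10 lower in roots, against 64% and 21.6% of all genes tested (median 1.8). TMM scaling gave 22 higher and 10 lower, against 38.2% and 34.2% of all genes tested. IRT1 (AT4G19690), the ferrous iron transporter of the root surface, had 262, 175 and 195 CPM in roots, against no read in shoots, at least 974-fold higher. FRO2 (AT1G01580), the ferric chelate reductase, had 271, 154 and 184 CPM in roots, against 2.37, 1.09 and 0.76 CPM in shoots (log2 difference 6.78 ± 0.34). FIT (AT2G28160), the bHLH factor above both, had 134, 137 and 135 CPM in roots, against 5.96, 4.29 and 6.76 CPM in shoots (log2 difference 4.48 ± 0.14). All root libraries stood above the shoots for these 3. In 14 of the list's 42 members every shoot library held at most 3 reads, and in 3 every root library did. Such members could pass the filter only through the other organ. For IRT1, F6'H1, BHLH38 and BHLH39 the direction was thus fixed in advance. AHA2 (AT4G30190), the proton pump that acidifies the rhizosphere, had 728, 1239.6 and 822 CPM in roots, against 157, 186 and 169 CPM in shoots (log2 difference 2.41 ± 0.19). Coumarins mobilize iron outside the root, and F6'H1 (AT3G13610), which makes them, had 297, 386 and 256 CPM in roots, against 0.0677, 0.145 and 0.152 CPM in shoots (log2 difference 8.96 ± 0.16). Their exporter PDR9 (AT3G53480) had 168, 187 and 173 CPM in roots, against 0.0677, 0.145 and 0.304 CPM in shoots (log2 difference 8.05 ± 0.15). These 3 did not overlap either. The subgroup Ib factors that partner FIT were low in the control roots, BHLH38 (AT3G56970) at 17.7, 11.9 and 5.66 CPM in roots, against 0, 0.145 and 0 CPM in shoots and BHLH39 (AT3G56980) at 17, 9.66 and 5.81 CPM in roots, against 0, 0.145 and 0 CPM in shoots, and root library 1 was the highest root for both. F6'H1 and BHLH38 overlap another annotated gene.

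In the vascular path, FRD3 (AT3G08040), which exports citrate into the xylem, had 27.7, 36.1 and 32.5 CPM in roots, against 0.203, 0.145 and 0.076 CPM in shoots (log2 difference 5.66 ± 0.17). OPT3 (AT4G16370), a phloem transporter, was lower in roots, with 6.02, 6.18 and 4.08 CPM in roots, against 75.7, 67.6 and 58.7 CPM in shoots (log2 difference -3.53 ± 0.16). FRO7 (AT5G49740), the ferric reductase of chloroplasts, had 0, 0 and 0.0755 CPM in roots, against 68.8, 48.1 and 47.3 CPM in shoots, with a single root read. Nicotianamine synthases, which make an iron chelator, were divided. NAS2 (AT5G56080) had 13, 20.6 and 29.8 CPM in roots, against no read in shoots. NAS3 (AT1G09240) had no read in roots, against 9.68, 8.15 and 15.1 CPM in shoots. NAS2 was higher and NAS3 lower in roots. The filter fixed these directions, and those of FRD3 and FRO7, since each gene could pass it only through 1 organ. NAS1 (AT5G04950) overlapped at 28.5, 57.7 and 48.5 CPM in roots, against 39.8, 42 and 38.4 CPM in shoots. The ferritin gene FER1 (AT5G01600), for the iron store of plastids, had 269, 237 and 271 CPM in roots, against 69.6, 186 and 595 CPM in shoots. Shoot library 1 was the lowest and shoot library 3 the highest of the shoots. The log2 difference of 0.39 ± 0.76 did not pass the test. It was -0.22 with TMM scaling, and 1.18 and past the test without shoot library 3. FER3 (AT3G56090), another ferritin, had the same order in shoots, at 75.4, 65.2 and 65.1 CPM in roots, against 32.4, 68.3 and 144 CPM in shoots.

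Zinc, copper and manganese genes had 15 of 33 tested members higher and 15 lower in roots, against 64% and 21.6% of all genes tested. With TMM scaling 13 were higher and 18 lower, against 38.2% and 34.2% of all genes tested. The median was 0.13, or -0.47 with TMM scaling. HMA4 (AT2G19110), which loads zinc into the xylem, had 153, 205 and 266 CPM in roots, against 27.6, 26.9 and 23 CPM in shoots (log2 difference 2.95 ± 0.19). NRAMP1 (AT1G80830), the manganese uptake transporter, had 186, 266 and 276 CPM in roots, against 26.8, 27.1 and 20.4 CPM in shoots (log2 difference 3.26 ± 0.17). MTP3 (AT3G58810), which moves zinc into the vacuole, had 92.4, 43.7 and 58.6 CPM in roots, against 1.83, 2.47 and 2.35 CPM in shoots (log2 difference 4.53 ± 0.25). All 3 were higher in every root library. PAA2 (AT5G21930), the copper pump of thylakoids, had 12.9, 13.1 and 14.6 CPM in roots, against 65, 71.4 and 56.5 CPM in shoots (log2 difference -2.2 ± 0.11). CSD2 (AT2G28190), the plastid copper/zinc superoxide dismutase, had 149, 179 and 146 CPM in roots, against 1146, 973 and 1012 CPM in shoots (log2 difference -2.72 ± 0.11). These 2 chloroplast genes were lower in roots. The cytosolic CSD1 (AT1G08830) had 631, 610.2 and 552 CPM in roots, against 520.3, 482 and 529.7 CPM in shoots, higher on the CPM scale (log2 difference 0.23 ± 0.10) and lower with TMM scaling (-0.38). NRAMP1, PAA2 and CSD1 overlap another annotated gene.

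Metallothioneins, small metal-binding proteins, went in different directions. MT1C (AT1G07610) had 259, 366 and 288 CPM in roots, against 14.8, 15.3 and 13 CPM in shoots (log2 difference 4.35 ± 0.13). MT3 (AT3G15353) had 132, 117 and 174 CPM in roots, against 1987, 1748 and 1846 CPM in shoots (log2 difference -3.73 ± 0.14). MT2B (AT5G02380) had 337, 288 and 368 CPM in roots, against 1624, 1221 and 1283 CPM in shoots (log2 difference -2.05 ± 0.14). MT1C was higher in roots, and MT3 and MT2B were lower, as was MT2A (-4.54 ± 0.33). MT1A was listed at 0 in every library, and near-identical sequence in other annotated genes makes that value uncertain. COPT2 (AT3G46900), which takes up copper in roots, had 1.95, 4.83 and 4.08 CPM in roots, against 0.406, 0.582 and 0.684 CPM in shoots (log2 difference 1.90 ± 0.29). COPT6 (AT2G26975), another copper transporter, was lower in roots, with 0, 0 and 0.0755 CPM in roots, against 20.7, 16.7 and 21.6 CPM in shoots. MT3 overlaps another annotated gene.

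Of 18 tested nitrate and ammonium genes, 12 were higher and 3 lower in roots, against 64% and 21.6% of all genes tested (median 2.54). TMM scaling gave 11 higher and 4 lower, against 38.2% and 34.2% of all genes tested. NRT1.1 (AT1G12110), the nitrate transporter and sensor, had 193, 479 and 279.6 CPM in roots, against 33.5, 26.5 and 41.2 CPM in shoots (log2 difference 3.14 ± 0.35). NRT2.1 (AT1G08090), the high-affinity transporter, had 27.7, 74.8 and 35.6 CPM in roots, against 0.203, 0.291 and 0.076 CPM in shoots (log2 difference 5.96 ± 0.34). NRT1.5 (AT1G32450), which loads nitrate into the xylem, had 431, 450.0 and 702 CPM in roots, against 15.4, 14.3 and 11.7 CPM in shoots (log2 difference 5.18 ± 0.19). Root library 2 was the highest for NRT1.1 and NRT2.1, and it held the highest root value in 13 of the 18 members (72.2%, against 30.7% of all genes tested). AMT1;3 (AT3G24300), an ammonium transporter, had 113, 128 and 104 CPM in roots, against 0.135, 0 and 0.076 CPM in shoots, with 3 reads in shoots. NRT1.7 (AT1G69870), which moves nitrate out of old leaves, was lower in roots, at 3.75, 2.98 and 2.79 CPM in roots, against 114, 93.5 and 151 CPM in shoots. NIA1 (AT1G77760), a nitrate reductase, had 271, 730.3 and 353 CPM in roots, against 33.4, 27 and 30.2 CPM in shoots (log2 difference 3.75 ± 0.36). NIR1 (AT2G15620), nitrite reductase, overlapped at 254, 552 and 313 CPM in roots, against 249.8, 309 and 249.7 CPM in shoots, with log2 differences of 0.39 ± 0.28 on the CPM scale and -0.21 with TMM scaling. NIR1 did not pass the test on either scale, and it passed without root library 1 (0.63) and with the replicate number as a block (adjusted p = 0.0447 in limma). NRT1.5 overlaps another annotated gene.

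Among 17 tested sulfur genes, 9 were higher and 5 lower in roots on the CPM scale, against 64% and 21.6% of all genes tested. With TMM scaling 6 were higher and 8 lower, against 38.2% and 34.2% of all genes tested. The uptake transporter SULTR1;1 (AT4G08620) had 40.5, 72.7 and 72.3 CPM in roots, against no read in shoots. SULTR1;2 (AT1G78000), also of uptake, had 334, 598 and 501 CPM in roots, against 0.203, 0.218 and 0.911 CPM in shoots (log2 difference 9.02 ± 0.33). Both were higher in every root library. SULTR3;1 (AT3G51895), of chloroplasts, had 0.391, 0.639 and 0.528 CPM in roots, against 46.9, 32.3 and 32.2 CPM in shoots (log2 difference -5.19 ± 0.19). SULTR2;1 (AT5G10180), of the vasculature, had 31.6, 17.9 and 23.3 CPM in roots, against 204, 168 and 167 CPM in shoots (log2 difference -2.89 ± 0.19). Both were lower in every root library. SIR (AT5G04590), sulfite reductase, had 423, 434 and 389.8 CPM in roots, against 329.8, 326 and 318 CPM in shoots, higher on the CPM scale (log2 difference 0.36 ± 0.09) and lower with TMM scaling (-0.25). APS1 (AT3G22890), an ATP sulfurylase of sulfate activation, overlapped at 464, 279.9 and 347 CPM in roots, against 451, 407 and 363 CPM in shoots. It was lower in roots without root library 1 (-0.38) and with a divisor without photosynthesis and organelle genes (-0.45).

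Of 11 tested potassium transport genes 7 were higher and 3 lower in roots, against 64% and 21.6% of all genes tested (median 3.16). TMM scaling gave 6 higher and 4 lower, against 38.2% and 34.2% of all genes tested. AKT1 (AT2G26650), the uptake channel, had 134, 192 and 165 CPM in roots, against 7.99, 4.8 and 8.13 CPM in shoots (log2 difference 4.48 ± 0.21). SKOR (AT3G02850), which releases potassium into the xylem, had 28.2, 84.4 and 79.6 CPM in roots, against 0.677, 0.291 and 0.684 CPM in shoots (log2 difference 5.81 ± 0.43). HKT1 (AT4G10310), which takes sodium back out of the xylem, had 116, 115 and 86.5 CPM in roots, against 1.83, 3.64 and 1.97 CPM in shoots (log2 difference 5.20 ± 0.23). All 3 were higher in roots, with root library 1 the lowest root for SKOR. AKT2 (AT4G22200), of the phloem, was lower in roots, at 2.66, 3.27 and 3.25 CPM in roots, against 59.9, 57.4 and 51.1 CPM in shoots (log2 difference -4.00 ± 0.12). AKT1 and SKOR overlap another annotated gene.

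Aquaporins are the water channels of the plasma membrane (PIP) and the vacuole (TIP). They were higher in roots for 19 of 23 members and lower for 2, against 64% and 21.6% of all genes tested (median 2.57). With TMM scaling 18 were higher and 4 lower, against 38.2% and 34.2% of all genes tested. PIP1;1 (AT3G61430) had 1474, 1519.8 and 1394 CPM in roots, against 100.4, 81.7 and 63.9 CPM in shoots (log2 difference 4.17 ± 0.15). PIP2;2 (AT2G37170) had 1222, 1181 and 1055 CPM in roots, against 58.2, 43.1 and 43.8 CPM in shoots (log2 difference 4.57 ± 0.13). TIP1;1 (AT2G36830) had 1490.1, 1263 and 1231 CPM in roots, against 206, 208 and 180.2 CPM in shoots (log2 difference 2.74 ± 0.11). These 3 were abundant in roots and read in every shoot library, whereas TIP2;3 (AT5G47450) had no shoot read and 603, 481 and 359.9 CPM in roots, at least 2224-fold higher. PIP2;6 (AT2G39010) was lower in roots, at 3.75, 3.62 and 1.81 CPM in roots, against 349.9, 366 and 319 CPM in shoots (log2 difference -6.65 ± 0.23). NIP6;1 (AT1G80760), a boron channel of shoot nodes, was lower in roots too, at 6.17, 4.26 and 7.17 CPM in roots, against 16.3, 10.04 and 9.57 CPM in shoots. Its root counterpart NIP5;1 (AT4G10380) was higher, at 119, 137 and 106 CPM in roots, against 10.1, 5.16 and 7.22 CPM in shoots (log2 difference 3.96 ± 0.22). PIP1;4 and PIP2;5 did not pass on the CPM scale and were lower in roots with TMM scaling. NIP6;1 overlaps another annotated gene.

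**Figure D5:**
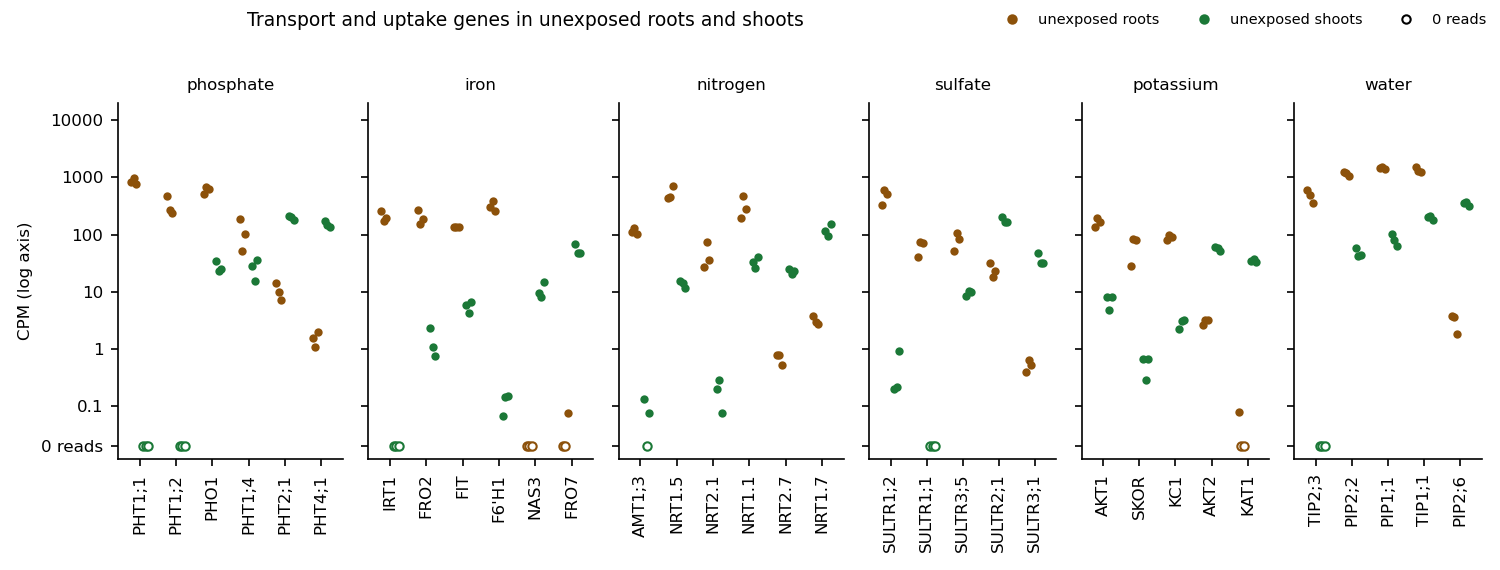
CPM (y axis, log scale) of phosphate, iron, nitrogen, sulfate, potassium and water transport or uptake genes in the control libraries, roots at the left and shoots at the right of each gene, with 1 point per library and open points for 0 reads. Uptake and xylem-loading genes such as PHT1;1, IRT1, NRT2.1 and AKT1 lie higher in roots, while PHT2;1, NAS3, NRT1.7, SULTR3;1, AKT2 and PIP2;6 lie lower.

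Glucosinolates, the sulfur-rich defence compounds of the cabbage family, are made from methionine (aliphatic) or tryptophan (indole). Of 24 tested genes 15 were higher and 7 lower in roots, against 64% and 21.6% of all genes tested (median 1.14). TMM scaling gave 11 higher and 9 lower, against 38.2% and 34.2% of all genes tested. Neighbouring paralogs of the aliphatic branch had opposite directions. CYP79F1 (AT1G16410) had 1.09, 0.426 and 0.0755 CPM in roots, against 714, 650.0 and 584 CPM in shoots (log2 difference -9.42 ± 0.35). CYP79F2 (AT1G16400) had 247, 200.1 and 221 CPM in roots, against 12.1, 11.1 and 8.05 CPM in shoots (log2 difference 4.37 ± 0.15). The first was lower and the second higher in roots, without overlap. The chain-elongation gene MAM1 (AT5G23010) had 303, 202 and 234 CPM in roots, against 675, 619 and 544 CPM in shoots (log2 difference -1.33 ± 0.15). MAM3 (AT5G23020), for longer chains, had 794, 652 and 731 CPM in roots, against 19.6, 18.6 and 17.8 CPM in shoots (log2 difference 5.24 ± 0.09). MAM1 was lower and MAM3 higher in roots. Of the regulators, MYB29 (AT5G07690) was lower in roots, with 0.313, 0.071 and 0.0755 CPM in roots, against 105, 106 and 84.2 CPM in shoots (log2 difference -7.26 ± 0.18), and MYB28 (AT5G61420) overlapped at 207, 127 and 138 CPM in roots, against 148, 143 and 158 CPM in shoots. In the indole branch, MYB34 (AT5G60890) had 84, 74.6 and 87.3 CPM in roots, against 26.3, 26.4 and 22.2 CPM in shoots (log2 difference 1.7 ± 0.10). BGLU23 (AT3G09260) (PYK10), a beta-glucosidase of endoplasmic reticulum bodies, had 3053, 2335 and 2902 CPM in roots, against 24.4, 14.2 and 13.5 CPM in shoots (log2 difference 7.32 ± 0.22). Both were higher in every root library. BGLU23 overlaps another annotated gene.

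All 11 tested genes of the thalianol, marneral and arabidiol/baruol clusters were higher in roots with CPM and TMM scaling, and 10 of the list's 12 members had no shoot read (median 5.55, or 6.73 with such genes at their bound). Over all genes tested 64% were higher, or 38.2% with TMM scaling. All 12 members had at most 3 reads in every shoot library, so they could pass the filter only through roots. The direction of those tested was therefore fixed by the filter. These clusters place a triterpene synthase next to enzymes that modify its product. PEN1 (AT4G15340), arabidiol synthase, had 81.6, 89.8 and 95.5 CPM in roots, against no read in shoots, at least 411-fold higher. Its neighbour CYP705A1 (AT4G15330) had 76.5, 65.5 and 96.6 CPM in roots, against no read in shoots. THAS1 (AT5G48010), thalianol synthase, had 27.1, 6.68 and 21.1 CPM in roots, against no read in shoots, with root library 2 below the others. BARS1 (AT4G15370), baruol synthase, had 4.53, 5.68 and 6.64 CPM in roots, against no read in shoots. Shoot libraries held at most a few reads of any gene on the list.

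The leaf exports sucrose and stores starch, and roots use the sugar. Of 21 members 8 were higher and 13 lower in roots with CPM and TMM scaling (median -2.28). The shares over all genes tested were 64% and 21.6%, or 38.2% and 34.2% with TMM scaling. SWEET11 (AT3G48740), which releases sucrose for phloem loading, had 0.391, 0.213 and 0.302 CPM in roots, against 70.4, 69.5 and 74.5 CPM in shoots (log2 difference -6.49 ± 0.14). SUC2 (AT1G22710), the loader itself, had 49.9, 54.3 and 48.3 CPM in roots, against 182, 152 and 140.1 CPM in shoots (log2 difference -1.62 ± 0.11). BAM3 (AT4G17090), the plastid beta-amylase, had 5.94, 3.91 and 3.25 CPM in roots, against 608, 750.3 and 956 CPM in shoots (log2 difference -7.32 ± 0.23). Every root library was below the shoots for these 3 and for the starch genes APL1 (AT5G19220) (-5.64 ± 0.41) and SEX1 (AT1G10760) (-4.95 ± 0.09). CINV1 (AT1G35580), a cytosolic invertase, was higher in roots at 359, 378 and 545 CPM in roots, against 44.4, 46.3 and 46 CPM in shoots (log2 difference 3.19 ± 0.15). SWEET16 (AT3G16690), of the vacuole, was higher at 40.9, 33 and 42.2 CPM in roots, against 3.32, 2.69 and 3.57 CPM in shoots. BAM3 and APL1 overlap another annotated gene.

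Of 18 tested cellulose and lignin genes 14 were higher and 2 lower in roots, against 64% and 21.6% of all genes tested (median 1.93). With TMM scaling 12 were higher and 4 lower, against 38.2% and 34.2% of all genes tested. CESA4 (AT5G44030), of the secondary wall, had 68.9, 78.9 and 56.2 CPM in roots, against 16.7, 16.7 and 10.3 CPM in shoots (log2 difference 2.2 ± 0.20). C4H (AT2G30490), of lignin synthesis, had 663, 651 and 637 CPM in roots, against 88.4, 87.4 and 94.7 CPM in shoots (log2 difference 2.84 ± 0.08). Both were higher in every root library. CESA3 (AT5G05170), of the primary wall, overlapped at 447, 484 and 438 CPM in roots, against 485, 477 and 490.4 CPM in shoots. It was lower in roots with a divisor without photosynthesis and organelle genes (log2 difference -0.35). CESA1 (AT4G32410), of the primary wall too, was lower in roots at 341, 345 and 317 CPM in roots, against 393, 389 and 395 CPM in shoots, a call that was lost without root library 3, shoot library 1 or shoot library 3. CESA4, CESA3 and CESA1 overlap another annotated gene.

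Of 19 tested hormone genes 13 were higher and 6 lower in roots, against 64% and 21.6% of all genes tested (median 1.51). TMM scaling gave 11 higher and 6 lower, against 38.2% and 34.2% of all genes tested. IPT5 (AT5G19040), of cytokinin synthesis, had 28.1, 35.1 and 30.2 CPM in roots, against 0.677, 0.509 and 0.38 CPM in shoots (log2 difference 4.96 ± 0.17). CYP735A2 (AT1G67110), which makes trans-zeatin, had 7.35, 24.5 and 17.7 CPM in roots, against 0.339, 0.364 and 0.152 CPM in shoots (log2 difference 4.3 ± 0.39). ABCG14 (AT1G31770), which sends cytokinin to the shoot, had 110.5, 112 and 135 CPM in roots, against 7.38, 5.89 and 6.46 CPM in shoots (log2 difference 4.08 ± 0.12). These 3 were higher in every root library. Auxin carriers divided. PIN2 (AT5G57090), of the root epidermis, had 62.7, 68.3 and 76.1 CPM in roots, against 0.0677, 0 and 0 CPM in shoots. AUX1 (AT2G38120), the influx carrier, had 182, 192 and 175 CPM in roots, against 59, 58.4 and 51 CPM in shoots (log2 difference 1.7 ± 0.09). PIN7 (AT1G23080) had 60.6, 52.6 and 53.4 CPM in roots, against 129, 128 and 106 CPM in shoots (log2 difference -1.11 ± 0.10). PIN2 and AUX1 were higher and PIN7 lower in roots. NCED3 (AT3G14440), of abscisic acid synthesis, was lower in roots at 1.25, 2.34 and 1.96 CPM in roots, against 18.5, 10.04 and 7.44 CPM in shoots (log2 difference -2.34 ± 0.32). ABCG14 overlaps another annotated gene.

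Clock genes change over the day, and the time of harvest is not given in the sources used here. Of 16 members 3 were higher and 8 lower in roots, against 64% and 21.6% of all genes tested (median -0.27). With TMM scaling 2 were higher and 11 lower, against 38.2% and 34.2% of all genes tested. The evening gene TOC1 (AT5G61380) overlapped at 79.9, 96.9 and 98.7 CPM in roots, against 78.1, 114 and 148 CPM in shoots. It was lower in roots without shoot library 1 (-0.51) and with a divisor without photosynthesis and organelle genes (-0.53). GI (AT1G22770), also of the evening, was lower in roots at 152, 152 and 143 CPM in roots, against 172, 175 and 176 CPM in shoots, a call lost without root library 3 or shoot library 3. The morning gene LHY (AT1G01060) had 3.13, 1.21 and 1.66 CPM in roots, against 0.474, 0.509 and 0.456 CPM in shoots. Its partner CCA1 (AT2G46830) had 1.25, 0.852 and 1.43 CPM in roots, against 5.35, 2.18 and 2.66 CPM in shoots.

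Genes often used as references for quantitative PCR were higher in roots on the CPM scale in 15 of 16 cases and lower in none, with a median of 0.75 beside 0.64 over all genes tested. With TMM scaling 6 were higher and 3 lower, with a median of 0.15. The shares over all genes tested were 64% higher and 21.6% lower, or 38.2% and 34.2% with TMM scaling. ACT2 (AT3G18780), an actin, had 1107, 1102 and 1061 CPM in roots, against 342, 424 and 415 CPM in shoots (log2 difference 1.47 ± 0.11). UBQ10 (AT4G05320), a polyubiquitin, had 1664, 1529.8 and 1569 CPM in roots, against 750.4, 693 and 758 CPM in shoots (log2 difference 1.11 ± 0.10). TIP41 (AT4G34270) had 36.3, 35.5 and 40.7 CPM in roots, against 20.05, 22.5 and 22.6 CPM in shoots (log2 difference 0.77 ± 0.10, or 0.18 with TMM scaling). ACT2 lay above the median gene and TIP41 near it. Among floral genes, TFL1 (AT5G03840) was higher in roots at 10.3, 30.8 and 22.3 CPM in roots, against 1.02, 1.67 and 0.836 CPM in shoots (log2 difference 3.59 ± 0.39). SOC1 (AT2G45660) overlapped at 43.2, 50.6 and 50.4 CPM in roots, against 44, 46.4 and 45.9 CPM in shoots, with a log2 difference of -0.52 under TMM scaling.

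The division was then set beside that in plants given 5 µM La or Yb. Of the 13062 genes higher in control roots, 11794 (90.3%) were higher in La roots than in La shoots, and 12099 (92.6%) in Yb roots than in Yb shoots. Of the 4414 genes lower in control roots, 4025 (91.2%) were lower in La roots and 4147 (94.0%) in Yb roots. These shares stand against 63.3% (La) and 62.7% (Yb) of all genes tested that were higher and 22.3% (La) and 22.6% (Yb) that were lower. The root minus shoot difference itself changed, by the interaction term of a limma fit over all 18 libraries, for 2423 of 20414 genes in La plants and 105 in Yb plants. The 3 comparisons use separate libraries for their differences, but both interaction tests use the same controls.

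Of the 20 root hair genes, 9 passed the filter in La plants, with a median root minus shoot difference of 3.27 over those 9. All 20 passed it in Yb plants (median 4.38) and in controls (median 5.41), so the La median covers fewer genes. RHS13 (AT4G02270), a hair wall protein, had 5.6, 0.801 and 7.73 CPM in La roots, 28.8, 23.2 and 96.4 CPM in Yb roots and 99, 75.1 and 72.2 CPM in control roots. Its difference changed by -4.28 ± 0.79 (log2, adjusted p = 0.00319 in limma) in La plants. RHS19 (AT5G67400) had 8.67, 1.66 and 13.1 CPM in La roots, 45.7, 32.5 and 142 CPM in Yb roots and 146, 103 and 107 CPM in control roots. For both genes every La root was below every control root. In aquaporins, PIP1;1 (AT3G61430) had 759, 640.1 and 772 CPM in La roots, 878, 847 and 1148 CPM in Yb roots and 1474, 1519.8 and 1394 CPM in control roots (change of the difference -0.89 ± 0.20 in La plants). ABCG11 (AT1G17840), the cuticle exporter, had 11, 13.9 and 10.9 CPM in La roots, 11.6, 12.5 and 7.19 CPM in Yb roots and 2.42, 4.69 and 3.77 CPM in control roots. Its difference changed by 1.62 ± 0.27 in La plants and 1.35 ± 0.27 in Yb plants (log2). PIP1;1 thus had a smaller lead in La roots, and ABCG11 was closer to its shoot level. Light-harvesting genes had a median difference of -9.25 in La plants and -9.31 in Yb plants, against -9.65 in controls.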

How the data were processed

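RNA of roots and of shoots was sequenced as stranded, poly(A)-selected libraries read from both ends, per the labels' protocols. HTSeq 0.6.1p1, TopHat2 2.1.1 and Trimmomatic 0.36.1 are listed per the submitters' processing notes, with TAIR10 as genome build. Their settings, strand in counting included, were not given in the sources used here. Roots and shoots have 1 table each, deposited by the authors, with 28991 genes and 9 libraries. The tables carry the name RPKM, but the deposited values are a signal in which every library is a read count divided by 1 size factor and no gene length enters. Dividing by the smallest step gave whole reads for 100% of values, within 0.001 reads. An analysis of RPKM had been planned, and the same test was used for this unit.

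Each of the 6 control columns was divided by its sum and multiplied by 1000000 (CPM). Genes with at least 1 CPM in at least 3 of the 6 libraries were kept (20414), and log2(CPM + 0.5) was fitted with limma 3.58.1 in R 4.3.3 (trend, robust). Differences are root minus shoot, and calls are at a Benjamini-Hochberg adjusted p under 0.05. The count test on the recovered reads, edgeR's quasi-likelihood test (4.0.16), called 7580 genes higher and 6984 lower in roots. DESeq2 1.42.0 was another alternative. The other alternatives were 3 scalings, 2 pseudocounts, 2 filters, a replicate block, a fit of all 18 libraries and leaving out each library. Roots and shoots stand in separate tables, so organ and table cannot be told apart. Tables were made with Python 3.11.15 and pandas 2.3.3.

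Loci were matched to the RefSeq annotation of TAIR10.1 for 28781 of 28991 genes, and the others are 88 chloroplast and 122 mitochondrial genes. Of all genes, 8160 overlap another annotated gene and 731 have a near-identical copy (at least 95% identity over at least 50% of the length, BLAST 2.17.0), and their counts are uncertain. The lists hold 576 genes. The libraries, lists and tests were chosen with earlier results of these data known. Genes were named by a rule: the 10 with the largest difference in each direction among those past the test, with a mean of at least 100 CPM and groups that do not overlap, in each list the 3 tested members with the highest mean CPM and up to 2 past the test against the majority, all isoforms, and the 5 with the highest CPM in each organ. Other list members were chosen for their role after their values were seen. Bounds against 3 reads cover counting error only. No column was without a sample.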

Additional observations from a re-analysis of the deposited data

Results flagged for a closer look

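The root minus shoot difference of a gene was tested for a change between exposed and control plants with the interaction term of a limma fit over all 18 libraries, in which both exposures share the control libraries. It changed for 2423 of 20414 genes in plants given La and for 105 in plants given Yb. Among the 159 genes named by rule, 29 changed in La plants and 3 in Yb plants, and the values below are changes of the log2 difference. The 3 genes in Yb plants were ABCG11 (1.35), MT3 (0.97) and MT2B (0.90).

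In La plants, genes of the root hair and its wall changed by -4.28 (RHS13) and -4.19 (RHS19). The extensin-like genes changed by -2.69 (AT1G23720), -3.19 (AT3G28550) and -3.57 (AT3G54580), the root culture gene AIR1 by -3.12 and the peroxidase AT3G01190 by -2.49. Casparian strip genes changed by -1.76 (ESB1) and -1.99 (CASP1), and the alcohol-forming reductase CER4 by -4.98. Aquaporins changed by -0.70 (TIP1;2) and -0.89 (PIP1;1), arabidiol synthase PEN1 by -0.71 and the acyltransferase AT4G15390 by -2.23. The actin gene ACT2 changed by -1.01, the phosphate carrier PHT3;1 by -0.55, the plastid glutamine synthetase GS2 by -0.66, the root ferredoxin FD3 by -0.45 and CP12-3 by -0.88.

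Changes toward roots in La plants were 1.62 for ABCG11, 1.43 for the leaf ferredoxin FD2, 0.88 for the catalase CAT3, 0.83 for the cutin acyltransferase GPAT4 and 0.79 for the sulfate transporter SULTR2;1. Smaller ones were 0.72 for MT2B, 0.61 for MT3, 0.61 for the auxin carrier PIN7, 0.51 for the starch gene SEX1 and 0.31 for the hydroxymethyltransferase SHM1. GS2 is the gene of this group that was lower in control roots and was lower still, relative to shoots, in La plants.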

How the results depend on the processing

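Counts past the test moved by over 1.5 times with TMM and median-of-ratios scaling and with edgeR and DESeq2, which also change the test. Beside 13062 genes higher and 4414 lower in roots on the CPM scale, there were 7791 higher and 6986 lower with TMM scaling, 7696 higher and 7068 lower with median-of-ratios scaling, 7580 higher and 6984 lower with edgeR, and 7253 higher and 6744 lower with DESeq2. Leaving out 1 library gave 12615 to 12959 higher and 4261 to 4339 lower. A minimum of 5 CPM left 766 genes found in roots alone and 314 found in shoots alone, against 1245 and 511, and allowing fewer than 10 reads in the other organ gave 815 found in shoots alone. Of the 159 genes named by rule, 137 had the same direction and side of the threshold in every setting. The sign of the difference turned with TMM scaling, median-of-ratios scaling, edgeR and DESeq2, in that order, for GPAT4 (-0.0804, -0.0919, -0.0877 and -0.0907), GAPC2 (-0.16, -0.17, -0.16 and -0.17), NIR1 (-0.21, -0.22, -0.15 and -0.15), SOC1 (-0.52, -0.54, -0.54 and -0.54), PRXR1 (-0.58, -0.59, -0.60 and -0.60), CAT2 (-0.23, -0.24, -0.25 and -0.26), FER1 (-0.22, -0.23, -0.74 and -0.74), SIR (-0.25, -0.26, -0.26 and -0.27) and TTG1 (-0.47, -0.48, -0.49 and -0.49). With a divisor free of photosynthesis and organelle genes it turned for SOC1 (-0.18), PRXR1 (-0.24) and TTG1 (-0.13), and with median-of-ratios scaling for ADH1 (-0.0017). It turned without shoot library 2 for PRXR1 (-0.0340, and 0.0710 without shoot library 3) and without shoot library 1 for FER1 (-0.36, and 1.18 without shoot library 3). Of these 10 genes GPAT4, GAPC2, CAT2 and SIR were past the test on the CPM scale. Pseudocounts of 0.1 and 2, no filter and a fit of all 18 libraries gave the same calls for all 159. The count within 2-fold with TMM scaling was added after seeing the data. With the replicate number as a block, 13095 genes were higher and 4437 lower, and of the named genes NIR1 passed (0.39). Deviations of libraries with the same number correlated by 0.0886, 0.0946 and -0.00534, and those with unlike numbers by -0.126 to 0.0522. These values do not settle whether the numbers pair the libraries, and the main fit did not pair them. Genes under the filter, 3 libraries an organ, and low shoot or root reads of genes found in 1 organ limit what can be seen, and a value of 0 in an organ allows up to 3 reads per library.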

Other observations

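Genes that were at least 4-fold higher in one organ and past the test also lay side by side on the chromosomes. Counting runs of at least 5 neighbouring genes among those tested, roots had 21 runs with 136 genes and shoots had 4 runs with 20 genes. Of all genes tested, 16.4% were at least 4-fold higher and 10.6% at least 4-fold lower in roots, so the organs had unequal numbers of eligible genes. The shares were 12.8% and 13.1% with TMM scaling, and runs were counted on the CPM scale alone. Whether the organs differ in clustering was not tested. The longest, of 14 genes on chromosome 4 from AT4G15270 to AT4G15400, holds the arabidiol and baruol synthases PEN1 and BARS1 with cytochrome P450 genes of the CYP702A and CYP705A families, and its log2 differences ran between 2.39 and 10.29. Runs of 8 genes higher in roots lay on chromosome 3, with the nitrile-specifier genes NSP3, NSP1 and NSP4 and jacalin-like genes (2.42 to 7.29), on chromosome 5, with germin-like genes such as GLP6 and GER2 (2.37 to 6.73), and on chromosome 1, around RHS6 (2.85 to 7.26). The runs higher in shoots held 5 genes each, among them CRK5, CRK6, CRK7 and CRK10, cysteine-rich receptor-like kinases, on chromosome 4 (-6.92 to -2.57). Copies that arose by tandem duplication are common among neighbours, and reads of near-identical copies may be split between them.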
